A study of Mus musculus with 48 samples.

Results

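Among the C2C12 cells stretched for 6 h, libraries numbered 7 and 9 differed from libraries numbered 8 and 10 in both stages, among others in genes for protein folding. The 8 libraries described here are the stretched 6 h libraries of myoblasts and of differentiated cells, 4 on each side of that division, out of 48 in the series. The division was chosen from the counts of these same libraries. Differences between its sides, their SEs and any lack of overlap are therefore given as descriptions. Counts of genes past a threshold in this division support nothing. The same division of the nonstretched 6 h libraries (8), and of the stretched and nonstretched libraries at 3 h (8 and 8) and 1 h (6 and 8), served for comparison and was tested.

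C2C12 is a mouse line that grows as myoblasts and fuses into myotubes when serum is withdrawn. The cells were grown on flexible collagen-coated membranes. As myoblasts or after differentiation, they were either stretched rhythmically or kept on the same kind of membrane without stretching, with times of 1 h, 3 h and 6 h. Each of the 12 groups held 4 libraries, and each library carried a code for its experiment. In the 6 h groups, replicates 7 and 8 shared one code and replicates 9 and 10 another, so each code held 1 library of each side. The labels do not say whether replicates were separate cultures. The study's methods describe separate samples, and for myoblasts more than 1 sample from each independent experiment. For differentiated cells those methods count more experiments than the 6 h libraries have codes, and the codes were used for the pairs. The p-values measure the spread between these samples, with the code as block. Libraries sharing a code counted as separate samples, so the p-values do not measure the spread between independent experiments alone.

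Cells answer misfolded protein with separate programs for separate compartments. In the cytosol, heat shock factors raise chaperones such as the HSP70 and HSP90 families and their co-chaperones. In the endoplasmic reticulum (ER), the unfolded protein response raises the chaperone BiP (Hspa5), disulfide isomerases and components that remove misfolded proteins, while Cirbp and Rbm3 encode RNA-binding proteins known for rising in the cold and falling with heat.

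The stage labels matched the muscle markers. Myog, a transcription factor of differentiating muscle, lay at 0.563, 0.581, 0.512 and 0.567 CPM (counts scaled to library size) in stretched myoblast replicates 7, 8, 9 and 10, and at 816, 795, 767 and 723 CPM in the differentiated ones. Myog therefore separated the stages without overlap, and in differentiated cells its values overlapped between the sides. The 5 blood markers summed to between 0.498 and 1.37 CPM, with 2 of them at 0 throughout and Cd68 the most abundant. The 5 endothelial markers summed to between 0.598 and 0.900 CPM, led by Tek with none at 0 throughout. Epithelial markers summed to at least 12.9 CPM, led by Krt14 (up to 15.9 CPM) with none at 0 throughout, and neural markers to between 81.1 and 303 CPM, led by the tubulin gene Tubb3 with 1 at 0 throughout. Adipocyte and bone or cartilage markers summed to at most 0.188 and 0.548 CPM, led by Fabp4 and Sp7, with 0 and 2 of 5 at 0 throughout. In stretched myoblasts the neural sum lay at 279, 259, 303 and 260 CPM in replicates 7, 8, 9 and 10, so that replicates 7 and 9 were higher. There the epithelial sum was also higher, and the adipocyte sum lower, in replicates 7 and 9, while the other 3 sums overlapped between the sides, as did all 6 in differentiated cells. Their part in the results was not tested.

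The libraries had similar depth on both sides. Total counts ran from 58227373 to 62133864 in replicates 7 and 9 and from 57523220 to 61651393 in replicates 8 and 10, within 48447318 to 77080730 over the series. Single libraries did stand apart in long and in ribosomal transcripts. Ttn, which encodes the giant sarcomere protein titin, lay at 2894, 2622, 10071 and 2968 CPM in differentiated stretched replicates 7, 8, 9 and 10. Malat1, a long nuclear RNA singled out after its values were seen, lay at 980, 429, 488 and 387 CPM in the myoblast ones. Thus differentiated replicate 9 and myoblast replicate 7 were high, both on the same side of the division, and nonstretched differentiated replicate 9 was low in Ttn, at 1576 CPM against 5310 to 7865 CPM in the other 3. Rn18s-rs5, a ribosomal RNA sequence singled out likewise, lay at 10276, 17617, 9509 and 7712 CPM in the myoblast libraries and at 7532, 23750, 10031 and 17136 CPM in the differentiated ones. Among these it was high in replicate 8 of both stages and in differentiated replicate 10. Across all genes, the median log2 difference between sides went from -0.04 in the tenth with the shortest transcripts to 0.05 in the tenth with the longest. The part of transcript length in single genes was not tested, and the division is therefore also given below without the libraries high or low in long transcripts.

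**Figure D1:**
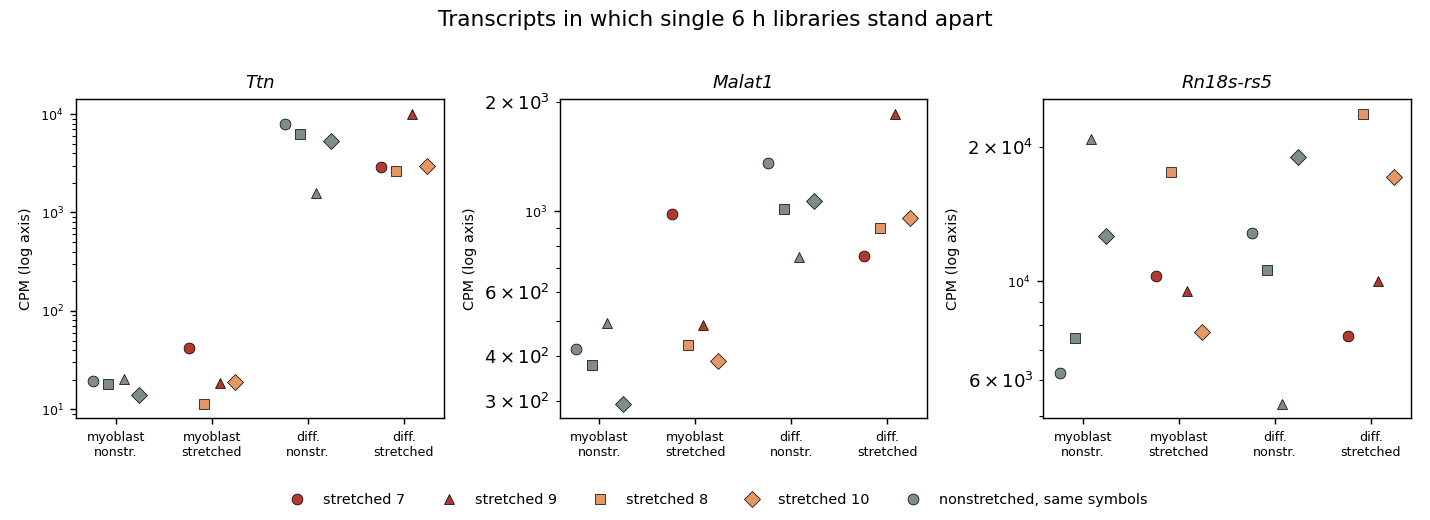
CPM (log axis) of Ttn, Malat1 and Rn18s-rs5 in each 6 h library, by stage and stretching, with 1 point per library. Ttn was highest in differentiated stretched replicate 9 (10071 CPM) as was Malat1, which among myoblast libraries was highest in stretched replicate 7 (980 CPM).

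Genes of ER protein folding were higher in replicates 7 and 9. Of the 29 measured members of the ER folding list (30 asked), 27 had a positive log2 difference and 25 were higher in all 4 pairs of one stage and experiment. Among all 16304 genes measured, 1967 were higher and 2443 lower in all 4 pairs. The median over the list was 0.37, beside -0.01 over the 16304 genes measured. By the study's limits (adjusted p under 0.05 and a log2 difference of at least 0.58), edgeR gave 15 genes higher in replicates 7 and 9 (0.092%) and 7 lower (0.0429%). Since the division was chosen from these counts, this is no valid test, and nothing is read from it. They also moved with single libraries: without myoblast replicate 9 or 10, which removes that pair from the contrast, 71 genes were higher and 20 lower. Without myoblast replicate 7 or 8, or without differentiated replicate 7 or 8, 1 gene was lower.

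Promoters of these genes are shown because members of the list share a short motif there. The ER stress element was searched as CCAAT, 9 bases of any kind, then CCACG, on both strands of the 250 bases before each RefSeq start (build GRCm38.p6). It occurred in 9 of the 24 promoters found for 23 of the list's genes (37.5%), in 0.113% of all 32851 promoters and in 0.138% of those of the genes measured. Since CCAAT is part of the element, its own share is given too: 83.3% of the list's promoters and 33.8% of all promoters held it. Of the 15 named genes with the largest positive differences, 11 had promoters to search, and the element occurred at Hspa5, Creld2, Dnajc3 and Syvn1. Their sequences, credited to RefSeq, lie on the plus strand at chr2:34771840-34772089, chr15:88819396-88819645, chr14:118937682-118937931 and chr19:6046326-6046575. They are written 5′ to 3′ with the element in capitals, which ends 46, 107, 86 and 25 bases before the start, and at Creld2 it reads on the opposite strand:
Hspa5: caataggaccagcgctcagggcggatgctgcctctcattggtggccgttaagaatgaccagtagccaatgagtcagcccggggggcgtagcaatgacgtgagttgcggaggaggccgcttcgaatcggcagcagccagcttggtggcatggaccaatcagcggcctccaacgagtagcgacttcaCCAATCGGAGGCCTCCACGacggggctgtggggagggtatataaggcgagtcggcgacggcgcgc
Creld2: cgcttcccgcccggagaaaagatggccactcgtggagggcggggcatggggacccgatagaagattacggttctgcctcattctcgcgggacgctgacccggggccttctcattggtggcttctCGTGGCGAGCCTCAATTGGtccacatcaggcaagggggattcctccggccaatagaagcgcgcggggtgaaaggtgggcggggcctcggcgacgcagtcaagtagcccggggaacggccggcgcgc
Dnajc3: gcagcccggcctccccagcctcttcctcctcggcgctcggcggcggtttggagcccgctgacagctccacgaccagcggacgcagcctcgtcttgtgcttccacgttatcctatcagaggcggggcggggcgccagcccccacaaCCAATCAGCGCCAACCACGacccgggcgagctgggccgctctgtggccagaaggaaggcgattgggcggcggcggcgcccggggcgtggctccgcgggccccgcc
Syvn1: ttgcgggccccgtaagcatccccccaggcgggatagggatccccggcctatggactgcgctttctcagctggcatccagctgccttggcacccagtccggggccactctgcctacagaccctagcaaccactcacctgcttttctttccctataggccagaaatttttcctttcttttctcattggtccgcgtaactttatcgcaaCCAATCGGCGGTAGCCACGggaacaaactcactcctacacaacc
A match describes these letters and is not evidence of a bound site. None of the 23 heat shock promoters held this element. The heat shock element was searched as GAA, 2 bases, TTC, 2 bases, GAA. It occurred in 2 of the 23 (8.7%), at Hspd1 and Hspe1, beside 0.466% of all promoters. None of the 12 promoters of the named genes with the largest positive differences held it.

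Hspa5, the major chaperone of the ER lumen, lay at 1950, 1069, 2064 and 1134 CPM in stretched myoblast replicates 7, 8, 9 and 10, beside 703 to 734 CPM in the nonstretched ones. In differentiated cells it lay at 1135, 778, 1281 and 803 CPM, beside 543 to 716 CPM. In both stages the libraries numbered 7 and 9 were highest, those numbered 8 and 10 lay above every nonstretched library, and the sides did not overlap. The division came from these counts, and genes named for large differences had to go alike in all pairs. Nothing is therefore read from lack of overlap between the sides, here or below. The share of all genes without overlap was not counted. The log2 difference between sides was 0.74 ± 0.05 (SE of the fit to these 8 libraries, a description only). In bulk RNA, a change in the number of cells that express a gene and a change in RNA per cell cannot be told apart.

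Sdf2l1, a partner of ER chaperones, had the largest difference of the list. It lay at 59.4, 26.1, 68.5 and 27.1 CPM in the stretched myoblast replicates 7, 8, 9 and 10, beside 16.5 to 18.5 CPM without stretching. In differentiated cells the values were 25.7, 15.8, 27.4 and 13.0 CPM, beside 9.93 to 14.2 CPM. Differentiated replicate 10 lay within the nonstretched range, whereas both libraries of the other side lay far above it. Its difference was 1.10 ± 0.08.

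Creld2, an ER protein induced with BiP, lay at 127, 68.4, 135 and 68.2 CPM in the myoblast libraries and at 57.9, 42.3, 62.5 and 39.2 CPM in the differentiated ones. Pdia4, a disulfide isomerase, lay at 318, 181, 330 and 188 CPM and at 171, 121, 186 and 113 CPM. For both genes the sides did not overlap in either stage, and differentiated replicate 10 of Pdia4 lay within its nonstretched range of 95.2 to 117 CPM. The differences were 0.76 ± 0.07 and 0.71 ± 0.05. The nucleotide exchange factor Hyou1 (0.62), the secreted ER protein Manf (0.60), the co-chaperone Dnajc3 (0.57) and the ubiquitin ligase Syvn1 (0.57) followed.

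Among the sensors of the response, Atf6 and Ern1 were the only ER folding members with negative differences, -0.02 ± 0.03 and -0.01 ± 0.04. The sensor Eif2ak3 differed by 0.17 ± 0.05. Xbp1, the transcription factor downstream of Ern1, differed by 0.31 ± 0.04. Translocon and glycosylation genes had a median of 0.06 (19 of 21 positive), and genes of traffic between the ER and the Golgi a median of 0.06 (21 of 26 positive).

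Genes of the heat shock list also differed; most encode cytosolic chaperones, but Hspd1 and Hspe1 act in mitochondria and Serpinh1 in the ER. All 22 members of that list were higher in replicates 7 and 9, with a median difference of 0.34. In all 4 pairs 20 of them were higher, beside 1967 of all 16304 genes. Hspa1b, an inducible HSP70, lay at 384, 185, 392 and 164 CPM in stretched myoblast replicates 7, 8, 9 and 10, beside 106 to 131 CPM without stretching. In differentiated cells it lay at 265, 143, 245 and 118 CPM, beside 89.4 to 109 CPM. Every stretched library lay above the nonstretched ones of its stage, and replicates 7 and 9 were far above the rest. Its difference was 1.06 ± 0.05. Hspa1b shares 67.6% of its stretches of 31 bases with Hspa1a, so the division of counts between these genes is uncertain.

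Hsph1, an HSP110 co-chaperone with no such shared stretch, lay at 485, 266, 509 and 275 CPM in the myoblast libraries and at 403, 243, 383 and 224 CPM in the differentiated ones. The nonstretched libraries spanned 185 to 198 CPM and 164 to 173 CPM. The sides again did not overlap, and the difference was 0.81 ± 0.04. Dnajb1 (0.52), the collagen chaperone Serpinh1 (0.49), Chordc1 (0.42) and Dnaja1 (0.39) showed smaller differences. Hsp90aa1 (0.40) and Hspa8 (0.32) did too, although pseudogenes make these uncertain, since 51.4% and 43.5% of their stretches occur in other genes.

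**Figure D2:**
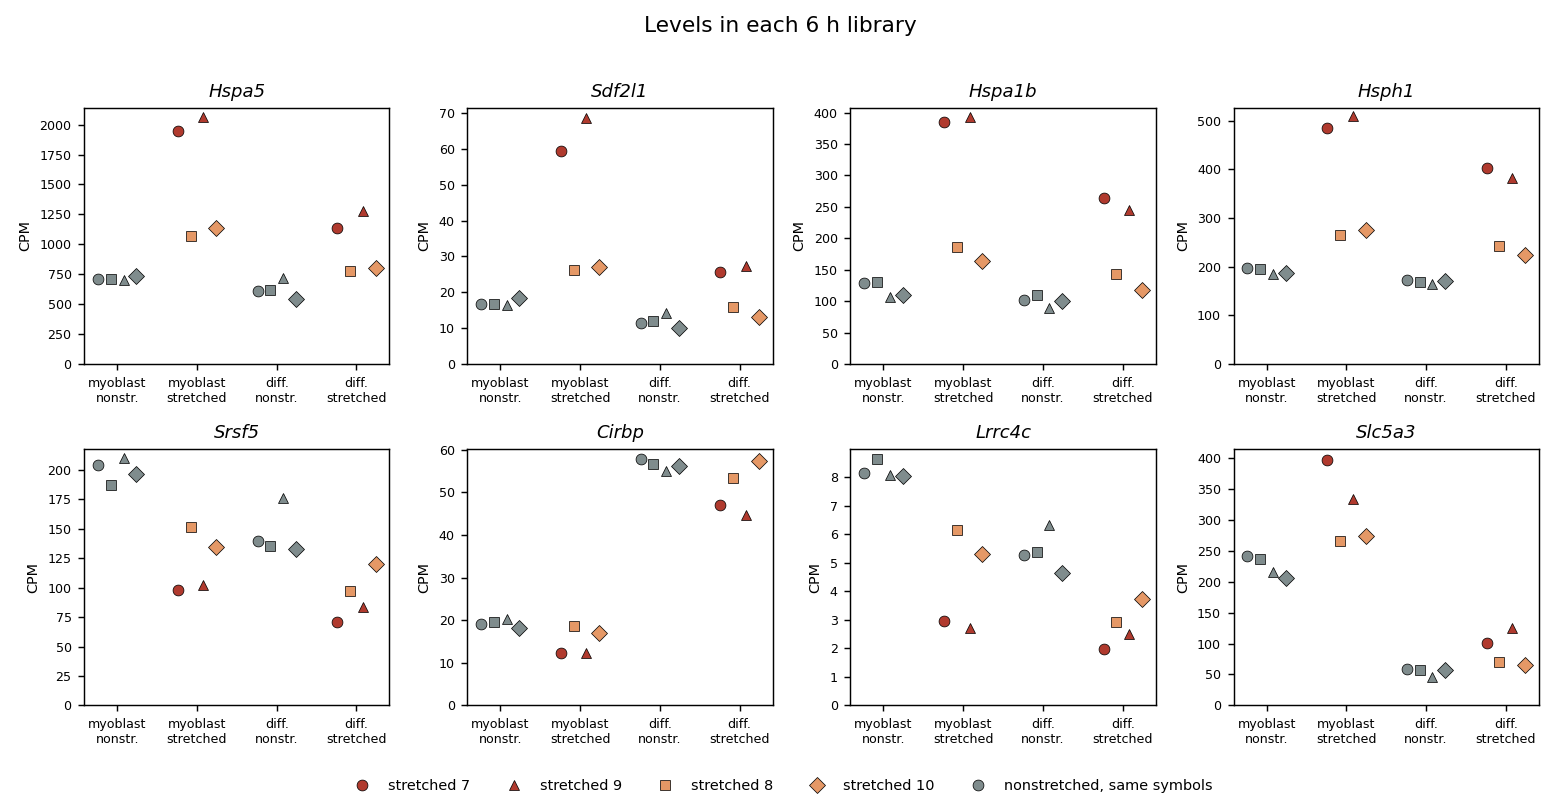
CPM of 8 genes in each 6 h library, by stage and stretching, with 1 point per library. Hspa5, Sdf2l1, Hspa1b and Hsph1 were highest, and Srsf5, Cirbp and Lrrc4c lowest, in stretched replicates 7 and 9.

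Other genes with large positive differences stood outside these lists. Slc5a3, an inositol transporter raised by osmotic stress, lay at 396, 266, 334 and 274 CPM in the stretched myoblast replicates 7, 8, 9 and 10 and at 101, 70.3, 125 and 65.6 CPM in the differentiated ones, with a difference of 0.57 ± 0.08. Banp, singled out after its values were seen, lay at 48.4, 36.9, 49.3 and 35.9 CPM and at 58.1, 42.9, 57.4 and 38.9 CPM, with a difference of 0.46 ± 0.03. For both genes the sides did not overlap in either stage.

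Both genes of the cold-inducible list were lower in replicates 7 and 9. Rbm3 lay at 545, 650, 550 and 670 CPM in stretched myoblast replicates 7, 8, 9 and 10, beside 630 to 731 CPM without stretching. In differentiated cells it lay at 271, 316, 258 and 311 CPM, beside 284 to 329 CPM. Replicates 7 and 9 were below all other 6 h libraries of their stage, and replicates 8 and 10 lay within the nonstretched range. The difference was -0.26 ± 0.03. Cirbp, the other member, lay at 46.9, 53.3, 44.7 and 57.4 CPM in the differentiated libraries, beside 55.1 to 57.8 CPM. In myoblasts it lay at 12.4 and 12.3 CPM in replicates 7 and 9, and replicates 8 and 10 were higher, with 18.7 CPM in replicate 8. Its difference was -0.38 ± 0.06.

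Srsf5, a splicing factor, lay at 98.4, 151, 103 and 135 CPM in the stretched myoblast libraries and at 70.6, 96.9, 83.3 and 120 CPM in the differentiated ones. All 8 stretched values were below the lowest nonstretched value of their stage, 187 and 133 CPM. Its difference was -0.50 ± 0.04, while the 10 measured SR protein genes had a median of -0.04 with 3 positive. Rbmx, singled out after its values were seen, differed by -0.33. Lrrc4c, a synaptic adhesion gene, had the largest negative difference among the 15 genes named for being lower, -0.81 ± 0.11. Its levels were low, at 2.94, 6.14, 2.72 and 5.31 CPM in myoblasts and 1.98, 2.94, 2.49 and 3.74 CPM in differentiated cells.

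Most other lists lay close to the median of all genes. Targets of ATF4 had a median difference of 0.02 (18 of 27 positive), and Ddit3, a target shared with the ER response, differed by 0.35 ± 0.07. Medians were -0.06 for sterol synthesis (5 of 25 positive), -0.07 for immediate early genes (6 of 32), -0.05 for the cell cycle (8 of 23) and 0.04 for the extracellular matrix (12 of 18). The 74 ribosomal protein genes had a median of -0.05 with 1 positive, and the muscle list a median of 0.03 with 15 of 25 positive. Muscle medians turned to -0.01 with DESeq2.

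The same division of other libraries gave few calls. Among the nonstretched 6 h libraries, edgeR called 0 of 16404 genes (0%) and DESeq2 0, with 695 and 207 genes at an unadjusted p under 0.05. At 3 h, edgeR called 2 of 16381 genes in stretched cells (0.0122%) and 1 of 16267 in nonstretched cells (0.00615%), where DESeq2 called 0 and 0, with 1461 and 339 genes at an unadjusted p under 0.05 by edgeR. These were Gm12481, Zfp781 and 2210418O10Rik. At 1 h, edgeR called 0 of 16018 genes in stretched cells (0%) and DESeq2 2, with 223 and 48 genes at an unadjusted p under 0.05. In nonstretched cells at 1 h, edgeR called 3 of 16465 genes (0.0182%) and DESeq2 2, with 891 and 398 genes at an unadjusted p under 0.05. The 3 were Gm2260 and the pair Gm13370 and Gm10240, which had the same mean count, difference and SE and so amount to 1 measurement. Counts so small moved with single libraries: in stretched cells at 1 h, 16 genes were called without myoblast replicate 7 and 22 without replicate 8. At 3 h, 7 genes were called without stretched myoblast replicate 10 and 5 without nonstretched myoblast replicate 7. Without differentiated nonstretched replicate 9, 2 genes were called at 6 h and 7 at 1 h.

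None of the measured genes of the ER folding, heat shock and cold-inducible lists was called in the 5 other sets of libraries. In those sets 0% to 0.0182% of all genes were called, so nothing is read from this about the lists. The ER folding medians there lay between -0.01 and 0.02, and the heat shock medians between -0.06 and 0.01, as the plot of lists over the 6 sets shows. In the stretched 3 h libraries the heat shock differences were small but mostly of the opposite sign to those at 6 h, with 3 of 22 positive. In all 4 pairs 8 were lower and 0 higher, beside 1389 and 1354 of all 16381 genes. The heat shock level differed by -0.10 to -0.02 over these pairs. The ER folding list in these 3 h libraries had 7 of 29 positive, with 5 lower and 1 higher in all 4 pairs. In the nonstretched 6 h libraries it had 22 of 29 positive. There 4 members were higher and 0 lower in all 4 pairs, beside 1375 and 1004 of all 16404 genes. Hspa5 differed by 0.08 in the nonstretched 6 h libraries (adjusted p = 0.965, edgeR quasi-likelihood test) and by -0.04 in the stretched 3 h libraries (adjusted p = 0.744). Hspa1b differed by -0.09 (adjusted p = 0.962) and by -0.17 (adjusted p = 0.0757). A p that misses the threshold does not show equal levels, and the difference between the sets was not tested.

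**Figure D3:**
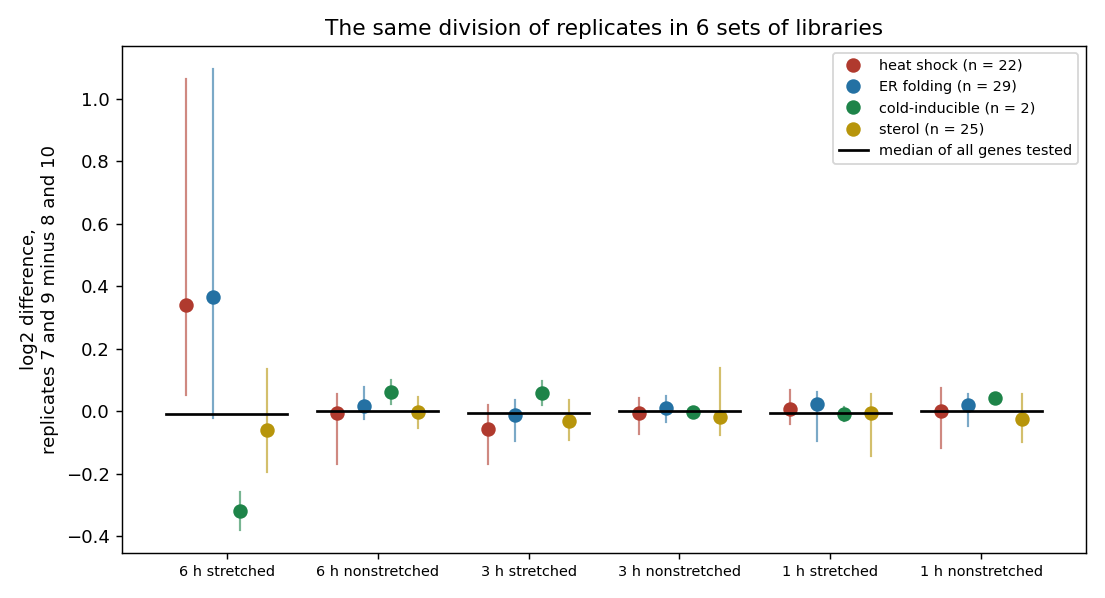
Log2 difference between replicates 7 and 9 and replicates 8 and 10 in 6 sets of libraries. Points are list medians, vertical lines span the members, and black bars are medians of all genes tested. Medians of the heat shock and ER folding lists were 0.34 and 0.37 in the stretched 6 h libraries and between -0.06 and 0.02 in the other 5 sets.

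Stretching for 6 h was then compared with no stretching over all 16 libraries. Most members of both chaperone lists rose with stretch. The lists were written with earlier results of these data known, so shares of their members are descriptions, here and below. Of the ER folding genes, 26 of 29 passed an adjusted p under 0.05 upward and 0 downward, and of the heat shock genes 21 of 22 upward and 0 downward (edgeR, beside 15.9% of 16254 genes upward and 17.5% downward). With the fold limit added, 10 and 3 of them were called higher, beside 135 genes in all (0.831%), and 0 lower, beside 209 (1.29%). With replicate number and stage as the block, the totals were 129 and 190. The neural marker sum, nearly all Tubb3, also differed with stretch in every library, from 187 to 194 CPM without it to 259 to 303 CPM with it in myoblasts, and from 40.3 to 51.4 CPM to 81.1 to 86.8 CPM in differentiated cells. Of the other sums, those that did not overlap with and without stretch were the epithelial sum in myoblasts (13.3 to 14.7 CPM without it, and higher in all 4 stretched libraries), the endothelial sum in myoblasts (0.389 to 0.549 CPM, then 0.598 to 0.900 CPM) and the bone or cartilage sum in differentiated cells (0.554 to 0.664 CPM, then 0.280 to 0.498 CPM). The part of these sums in the rise of the chaperone lists was not tested.

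Hspa1b rose by 1.10 ± 0.20 on the log2 scale (adjusted p = 0.000459, edgeR), and Sdf2l1 by 1.12 ± 0.22 (adjusted p = 0.00109). Hsph1 rose by 0.95 ± 0.15 (adjusted p = 0.000149) and Hspa5 by 0.91 ± 0.15 (adjusted p = 0.000264). All 8 stretched libraries of Hsph1 and Hspa5 lay above the nonstretched ones of their stage. Srsf5 fell by 0.68 ± 0.10 (adjusted p = 7.87e-05) and Lrrc4c fell by 0.95 ± 0.15 (adjusted p = 0.000175). Cirbp passed the adjusted p alone (-0.25 ± 0.08, adjusted p = 0.0213), and Rbm3 did not (-0.11 ± 0.05, adjusted p = 0.123). Without the 3 libraries that stood apart in long transcripts, neither gene passed, and the median of this list went from -0.18 to -0.11. The stretched libraries left out were myoblast replicate 7 and differentiated replicate 9. Their side held the lower values of this list, with a median stretch change of -0.38, beside 0.003 for replicates 8 and 10. What the shift rests on was not tested.

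The size of the change by side only describes the libraries, since the sides were chosen from these values. Relative to nonstretched libraries of the same numbers, replicates 7 and 9 gave a median of 0.50 for the ER folding list and 0.54 for the heat shock list, and replicates 8 and 10 gave 0.20 and 0.19. The group means stood in the order nonstretched, stretched 8 and 10, stretched 7 and 9 in both stages for 25 of 29 and 20 of 22 members. Over all genes, 10.8% stood in that order. The reverse, falling order held for 13 of 32 immediate early genes (40.6%), with 1 in the rising order, beside 11.3% of all genes falling. For Hspa5 the stretch change was 1.19 with replicates 7 and 9 and 0.53 with replicates 8 and 10, and for Srsf5 it was -1.03 and -0.37.

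Sterol genes rose with stretch, with positive medians on both sides. Of the 25, 24 passed the adjusted p upward and 0 downward, with a median change of 0.48. The medians by side were 0.46 for replicates 7 and 9 and 0.52 for replicates 8 and 10. Past 0.58 lay 3 (12%) and 7 (28%) of the sterol genes, beside 6.08% and 4.04% of all 16254 genes. Between the sides, 9 of the 25 were lower in replicates 7 and 9 in all 4 pairs and 1 was higher. Among all 16304 genes these counts were 2443 and 1967. The sterol level was lower in replicates 7 and 9 in every pair, by 0.03 to 0.08. Ngfr, a neurotrophin receptor with the largest rise among the named genes (1.30 ± 0.07, adjusted p = 5.28e-09), gave 1.24 and 1.36, from myoblasts alone in effect, since it lay at 0.217 CPM or less in differentiated cells. Ddit3 rose by 1.06 ± 0.09 (adjusted p = 3.52e-07), with 1.19 and 0.91. Of the named falls, Slc40a1, the iron exporter, fell by 0.97 ± 0.08 (adjusted p = 3.39e-07), with -1.03 and -0.91.

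**Figure D4:**
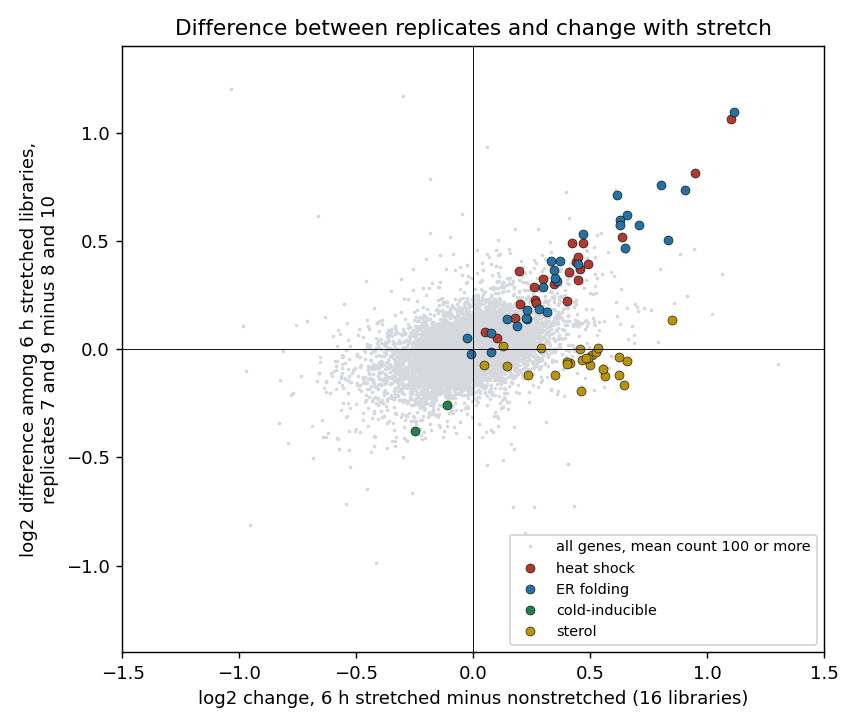
Log2 difference between the sides of the stretched 6 h libraries against log2 change with 6 h stretch over 16 libraries, with 1 point per gene. Grey points are genes with a mean count of at least 100, of which 4 lie outside the axes. Most heat shock and ER folding genes are raised on both axes, and sterol genes on the horizontal axis with a median of -0.06 on the vertical one.

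Both chaperone lists stood higher in the stretched libraries of 6 h than in those of 3 h. The heat shock level, as mean log2 CPM minus that of the nonstretched 6 h libraries of the same experiment, was 0.51, 0.18, 0.59 and 0.17 in stretched myoblast replicates 7, 8, 9 and 10 and 0.61, 0.26, 0.55 and 0.20 in the differentiated ones. The ER folding level was 0.74, 0.29, 0.76 and 0.29 in myoblasts and 0.38, 0.15, 0.47 and 0.13 in differentiated cells. At 3 h the stretched libraries lay between -0.09 and 0.02 for heat shock and between -0.07 and 0.04 for ER folding. The cold-inducible level was 0.41 to 0.51 in stretched myoblasts at 3 h and -0.44, -0.01, -0.50 and -0.12 at 6 h. In stretched myoblasts it thus stood higher at 3 h than at 6 h, and at 6 h lower in replicates 7 and 9 than in replicates 8 and 10. Nonstretched myoblasts at 3 h lay at 0.13 to 0.16. Stretched differentiated cells lay at 0.34 to 0.44 at 3 h, beside 0.04 to 0.10 without stretching. At 6 h their replicates 7, 8, 9 and 10 lay at -0.23, -0.02, -0.28 and 0.04. Change with time was not tested.

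**Figure D5:**
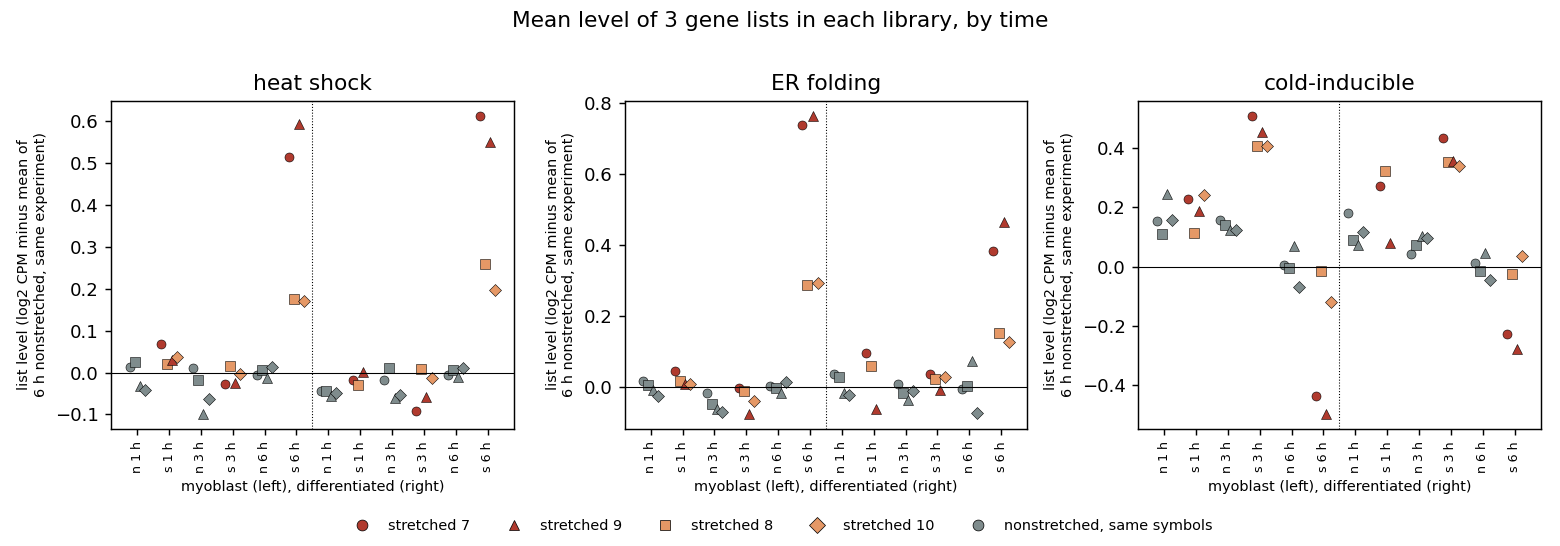
Mean log2 CPM of 3 gene lists in each library minus the mean of nonstretched 6 h libraries of the same stage and experiment, by time (n, nonstretched; s, stretched). One differentiated library at 1 h has no such reference and is absent. Heat shock levels of stretched replicates 7 and 9 at 6 h were 0.51 to 0.61.

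Without the libraries that stood apart in long transcripts, an alternative added after seeing the data, the division kept 6 of its 8 libraries, which form 2 full pairs. The medians were then 0.33 for ER folding (27 of 29 positive) and 0.34 for heat shock (22 of 22 positive). Medians of some other lists moved too: the matrix median turned from 0.04 to -0.06 (4 of 18 positive), ribosomal protein genes went from -0.05 to -0.02 (13 of 74) and immediate early genes from -0.07 to -0.03 (11 of 32). The median of ATF4 targets went from 0.02 to 0.04 (22 of 27) and that of the muscle list from 0.03 to 0.01 (18 of 25). The comparison of stretch with 13 libraries gave 25 of 29 ER folding and 20 of 22 heat shock genes upward at the adjusted p and 0 downward, beside 15% of 16652 genes upward and 14.5% downward. What set the sides apart was not tested.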

How the data were processed

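RNA was sequenced from 48 libraries, and the authors deposited whole-number counts per gene symbol for each stage (47480 symbols), made with STAR and Salmon on mm10 per the submitters' processing notes. The labels name the molecule nuclear RNA, whereas the study's methods describe RNA extracted from washed cells. Members and lists were chosen with earlier results of these data known.

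Counts were filtered with filterByExpr, scaled by TMM and tested with edgeR 4.0.16 (quasi-likelihood, Benjamini-Hochberg) in R 4.3.3, with stage and experiment as block. DESeq2 1.42.0 was the alternative. Calls needed an adjusted p under 0.05 and a log2 difference of at least 0.58. The code B231 of 1 stretched 1 h library was read as B31. CPM used TMM over all 48 libraries, and log2 CPM a prior count of 1. Scripts were tested on simulated data.

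Genes named were drawn from the 15 genes highest and the 15 lowest in replicates 7 and 9 (average count in the 8 libraries 100 or more, 4 pairs alike), list members, the 5 largest rises and 5 largest falls with stretch, and genes called in another set of libraries where these were 5 or fewer. Genes outside this rule are said to be singled out. Symbols starting with Gm or ending in Rik were counted without description. Shared stretches of 31 bases came from GENCODE vM21.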

Additional observations from a re-analysis of the deposited data

Results flagged for a closer look

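With 4 libraries a group, about 1 in 20 groups holds a value this far from the others by chance. Sdf2l1 was high in nonstretched myoblast replicate 10 at 6 h, at 18.5 CPM. Malat1 was high in stretched myoblast replicate 7, at 980 CPM. Srsf5 was high in nonstretched differentiated replicate 9, at 176 CPM. Ttn was high in stretched differentiated replicate 9, at 10070 CPM.

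The change with 6 h stretch differed between stages for 4 named genes by the test of the interaction (edgeR, both stages, 16 libraries). Their number is not set beside the share of all genes passing, and nothing is read from it. The change in differentiated cells minus that in myoblasts was -0.89 for Herpud1 (adjusted p = 0.0245), an ER protein of degradation, and -0.31 for Eif2ak3 (adjusted p = 0.0396). It was -0.71 for Txnip (adjusted p = 0.000271) and -1.15 for Plin4 (adjusted p = 0.000534).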

How the results depend on the processing

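In the stretched 6 h libraries, from whose counts the division was chosen, calls are no valid test and only their spread is given: DESeq2 gave 10 genes higher and 4 lower in replicates 7 and 9, and no filter on low counts gave 67 and 32. Leaving out each library gave 10 to 71 higher and 1 to 20 lower. In the nonstretched 6 h libraries, no filter gave 1 call and leaving out a library 0 to 2. At 3 h, DESeq2 gave 0 and 0 calls (stretched, nonstretched), no filter 31 and 16, and leaving out a library 3 to 7 and 1 to 5. At 1 h, DESeq2 gave 2 calls in stretched libraries, no filter gave 32 and 35, and leaving out a library 0 to 22 and 0 to 7. The heat shock level of a library, another quantity than the median of gene differences, differed by 0.37 between sides as the mean over members and by 0.45 as their median. The cause of these shifts was not tested. Leaving out either library of a pair removes that pair from the contrast.

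For 6 h stretch, the replicate block gave 129 genes higher and 190 lower, against 135 and 209. Same-numbered libraries share a number and an experiment code, but the labels give no pairing: their deviations correlated between -0.06 and 0.23, and 2 of 8 stretched libraries correlated best with their own number. Leaving out a library gave 106 to 153 higher and 165 to 244 lower. Among the 86 genes followed under the alternatives, none called for 6 h stretch or named for its difference between sides changed direction. Smaller values did change sign as single libraries were left out, such as the difference between sides of Ern1 (-0.05 to 0.01) and of Fos (-0.20 to 0.07) and the change of Ttn with stretch (-0.26 to 0.25). Genes with few counts rest on the filter.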
